A study of Mus musculus with 12 samples.

Results

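Iron handling in the dorsal root ganglion was followed through 10 genes, which stand at the steps of uptake, reduction, export, storage and regulation of cellular iron. They are the ferrireductase genes Steap3, Steap1 and Steap2, the uptake genes Tfrc and Slc11a2, the exporter gene Slc40a1, the ferritin genes Fth1 and Ftl1, and the iron regulatory protein genes Aco1 and Ireb2. The genes were taken by symbol from a list, all 10 were found among the 55416 genes in the files, and all 10 passed the filter on low counts that left 16384 genes for testing. Steap3 was selected on its measured counts, which in Prdm12 knockout ganglia were already known to differ from controls, so its values between those groups are a description and carry no test here. The other 9 were listed for their role in iron metabolism.

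Poly(A) RNA from dorsal root ganglia, which hold the cell bodies of the body's sensory neurons, was counted in 12 libraries from adult mice labelled C57Bl6. The 6 inducible knockout (iKO) libraries came from mice with the Cre recombinase gene CreERT2 at the Rosa26 locus, which tamoxifen switches on, and 2 floxed alleles of Prdm12, a nociceptor transcription factor gene, and were taken 1 month after injection. Rosa26 is active in most cell types, so deletion is not limited to neurons. Of the 6 controls, 4 also received tamoxifen and were likewise taken 1 month after injection. Among these, control 1 had CreERT2 with 1 floxed allele, controls 2 and 3 had no Cre and 1 floxed allele, and control 4 had CreERT2 with 0 floxed alleles. Controls 5 and 6 had the iKO genotype, CreERT2 with 2 floxed alleles, and were injected with corn oil. The time from that injection to collection is not given in the labels. Libraries iKO 1 to 3 and controls 1 and 2 were female and the other 7 male. Whether a library holds the ganglia of 1 mouse is not stated, so p-values measure only the spread between these samples. In whole ganglia, fewer cells of a type and less RNA per cell cannot be told apart.

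Most cells take up iron as the ferric ion bound to transferrin, through the transferrin receptor and endocytosis. In the endosome the iron is released, reduced to the ferrous form by a STEAP family ferrireductase and carried into the cytosol by the divalent metal transporter. There it is used, stored in ferritin or exported by ferroportin. Steap3 is the ferrireductase of this step in mouse red cell precursors, and mice that lack it are anaemic. It is also known as a p53-responsive gene with a part in exosome secretion. The iron regulatory proteins bind a hairpin in messenger RNAs, the iron-responsive element, when iron is low. In a 5′ UTR this blocks translation, and in a 3′ UTR it protects the messenger from decay.

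The canonical element has an unpaired C, a stem of paired bases and a loop of the letters CAGTGN, and these hairpins are shown because they mark which of the 10 genes hold the sequence read by the products of Aco1 and Ireb2. The search used a C, 5 bases of any kind and then the letters CAGTGN, on the sense strand only of annotated mouse transcripts, with all 5 upper stem bases paired and at least 4 of 5 lower stem bases paired. Tfrc held 4 such elements in its 3′ UTR. Slc40a1, Fth1 and Ftl1 held 1 each in the 5′ UTR. Each is given 5′ to 3′ with T for U, and capitals mark the unpaired C and the loop.
Tfrc, 3′ UTR, element 1: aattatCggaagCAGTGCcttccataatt
Tfrc, 3′ UTR, element 2: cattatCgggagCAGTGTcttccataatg
Tfrc, 3′ UTR, element 3: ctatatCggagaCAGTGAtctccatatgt
Tfrc, 3′ UTR, element 4: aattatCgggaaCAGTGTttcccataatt
Slc40a1, 5′ UTR: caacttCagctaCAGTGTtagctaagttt
Fth1, 5′ UTR: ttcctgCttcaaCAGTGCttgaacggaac
Ftl1, 5′ UTR: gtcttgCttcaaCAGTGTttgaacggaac
The loop and the unpaired C were the searched letters, and the stems differ between the Tfrc elements and the 5′ elements. Such a paired hairpin was found in the 5′ UTR of 6 of 20900 genes (0.0287%) and in the 3′ UTR of 11 of 21681 genes (0.0507%). The letters alone, without pairing, stood in 12% of 5′ UTRs and 34.7% of 3′ UTRs. Steap3, Steap1, Steap2, Slc11a2, Aco1 and Ireb2 had 0 matches, which says only that this pattern is not in their annotated UTRs. Elements of another form, such as the one known in Slc11a2, would not be found by these letters.

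Total counts ran from 13943784 to 20377766 per library. Prdm12, the deleted gene, was at 23.3 ± 2.51 CPM (counts scaled to a common library size) in iKO libraries and 117 ± 29.4 CPM in controls (SD, n = 6 each), with no overlap between the groups. The lowest control was control 6, a corn-oil control, at 64.6 CPM, against 107 to 147 CPM in the other controls. Its summed skeletal muscle markers were 411 CPM, against at most 89.7 CPM in any other library. Its sensory neuron markers summed to 13545 CPM, within the range of the other controls. The part of muscle in its Prdm12 value was not tested. The floxed exons are not named in the labels. Library iKO 1 stood apart from the other iKO libraries. Its summed macrophage markers reached 663 CPM, against 225 to 253 CPM in iKO 2 to 6 and 247 to 394 CPM in controls, and 9 of the 10 markers were above every other library. Its fibroblast markers summed to 3905 CPM, against 1411 to 1627 CPM in iKO 2 to 6 and 1464 to 2150 CPM in controls. Its 10 sensory neuron markers summed to 10398 CPM, the lowest of the 12 libraries, and all 10 passed the filter on low counts. Its sums for satellite glia (4270 CPM), myelinating Schwann cells (6034 CPM), mural cells (442 CPM), neutrophils (472 CPM), endothelium and erythroid cells were also the highest of the 12 libraries. Log2 fold changes against all controls are given with and without iKO 1 for Steap3, Tfrc, Slc40a1, Fth1 and Ireb2.

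Steap3 was higher in every iKO library than in every control. It had 101, 108, 91.5, 78.9, 104 and 91.4 CPM in iKO 1 to 6, with a median of 96.1 CPM. The controls had 58.3, 50.5, 47.4, 50.5, 46.1 and 48.8 CPM in order of replicate, with a median of 49.6 CPM. The lowest iKO library, iKO 4, thus stood above the highest control, control 1. The mean was 95.8 ± 10.6 CPM in iKO libraries and 50.2 ± 4.29 CPM in controls (SD, n = 6 each), 191% of the mean in controls. The log2 fold change from the edgeR fit, which has sex as a term, was 0.91 ± 0.07 (SE, 95% interval 0.75 to 1.06). Over all genes tested, 155 (0.946%) passed an adjusted p of 0.05 in edgeR (quasi-likelihood, Benjamini-Hochberg), here named called, 253 genes (1.54%) had groups that did not overlap, and 144 of these (0.879% of all) had every iKO library above every control. Since this contrast chose Steap3, these shares are given as background only.

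**Figure D1:**
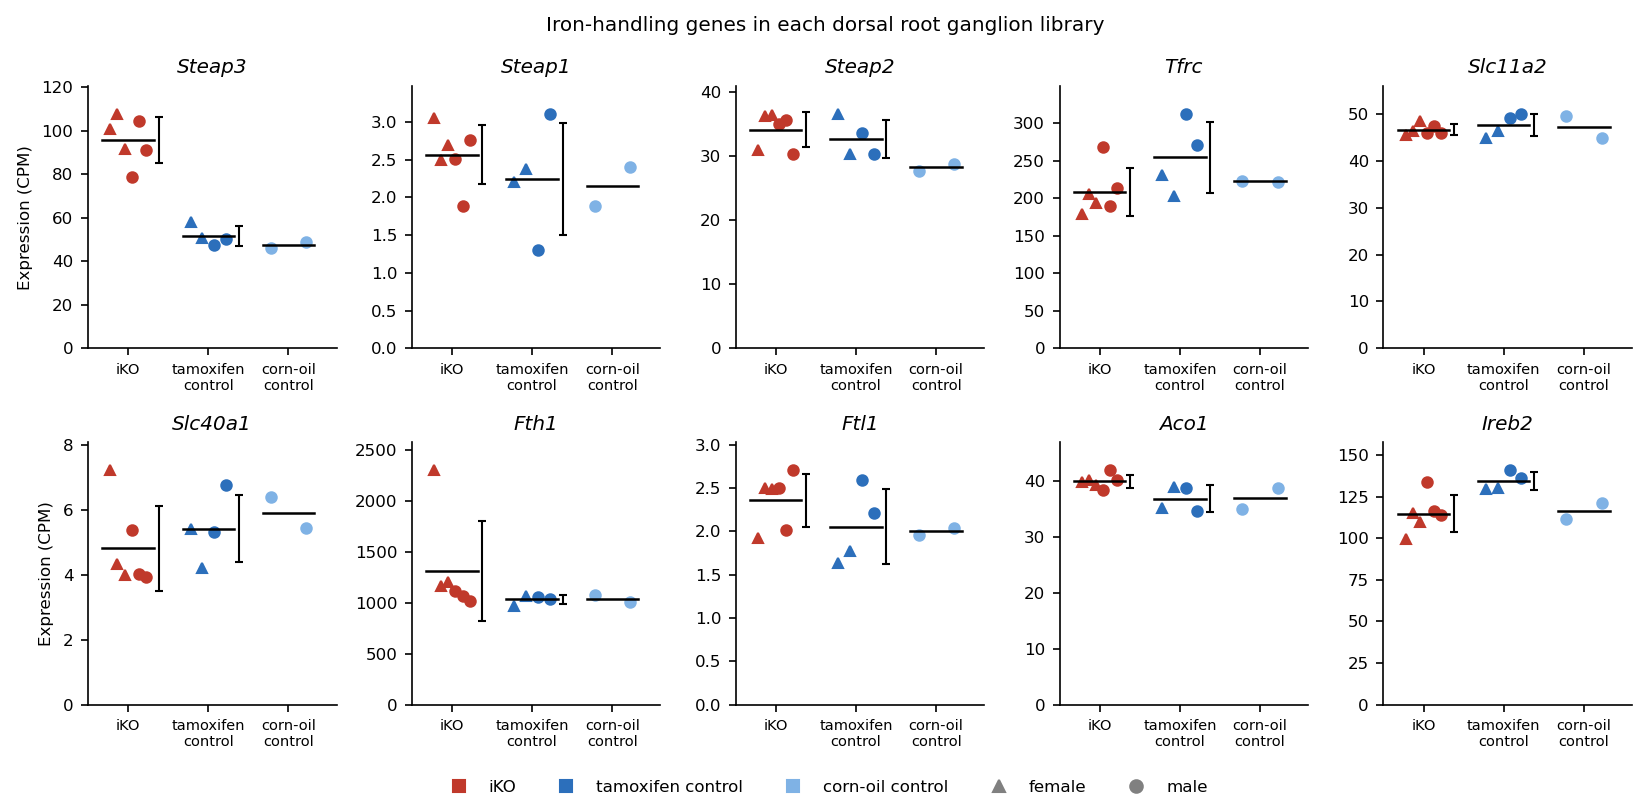
Expression in CPM of the 10 iron-handling genes in each library, with iKO libraries in red on the left, tamoxifen-injected controls in blue and corn-oil controls in light blue; triangles are female and circles male libraries, lines are means and bars SD for groups of more than 2. Steap3, chosen on this difference, separates all 6 iKO libraries (78.9 to 108 CPM) from all 6 controls (46.1 to 58.3 CPM). The other 9 genes overlap between the groups.

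Values of Steap3 within subsets of the samples come from the same libraries that chose the gene, so they describe the difference and give no independent support. The log2 fold change of Steap3 was 0.82 within replicates 1 to 4 and 1.05 within replicates 5 and 6. Among male libraries alone it was 0.92 and among female libraries alone 0.88. Without iKO 1 the value was 0.91, the same to 2 decimals as with it. Summed erythroid markers were 343 CPM in iKO 1 and 77.8 to 176 CPM in iKO 2 to 6, against 139 to 332 CPM in controls. The erythroid ranges overlapped between the groups through iKO 1 and iKO 3. Libraries iKO 2, 4, 5 and 6, at 95.3, 77.8, 87.0 and 86.5 CPM, lay below every control. The median log2 fold change of the 8 tested erythroid markers was -0.85. Of these, 0 had an unadjusted p under 0.05, against 9.52% of all genes, and edgeR called 0, against 0.946%. The 8 markers of myelinating Schwann cells summed to 4186 to 6034 CPM in iKO libraries, highest in iKO 1, and to 3596 to 4624 CPM in controls. Their median log2 fold change was 0.25. Of the 8, 3 had an unadjusted p under 0.05, against 9.52% of all genes, and edgeR called 0, against 0.946%. The part of either cell type in the Steap3 values was not tested.

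Against the 2 kinds of control the Steap3 values are likewise a description. Steap3 averaged 95.8 CPM in iKO libraries, 51.7 ± 4.64 CPM in tamoxifen-injected controls (SD, n = 4) and 46.1 and 48.8 CPM in the 2 corn-oil controls. The log2 fold change was 0.89 ± 0.08 (SE) against the tamoxifen-injected controls and 0.94 ± 0.11 (SE) against the corn-oil controls, and both comparisons share the iKO libraries. Between corn-oil and tamoxifen-injected controls its log2 fold change was -0.05 ± 0.12 (SE, 95% interval -0.30 to 0.20, edgeR adjusted p = 0.877). Controls of both kinds were among the libraries on which Steap3 was chosen, and such a choice can favour controls that lie close together. The interval and p-value are therefore a description too, and give no independent bound on the difference between the 2 kinds of control.

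The other ferrireductase genes measured did not show a difference of this kind. Steap1, whose protein lacks the NADPH-binding oxidoreductase domain of its relatives, was scarce, with 1.89 to 3.05 CPM and a median of 2.598 CPM in iKO libraries and 1.30 to 3.10 CPM and a median of 2.29 CPM in controls. The ranges overlapped almost fully. Its log2 fold change was 0.19 ± 0.19 (SE, 95% interval -0.22 to 0.60, edgeR adjusted p = 0.786). Steap2, a ferrireductase and cupric reductase, had 30.3 to 36.4 CPM and a median of 35.3 CPM in iKO libraries, against 27.7 to 36.5 CPM and a median of 30.3 CPM in controls. The highest Steap2 value of all was in control 1. Steap2 had a log2 fold change of 0.11 ± 0.08 (SE, 95% interval -0.05 to 0.28, edgeR adjusted p = 0.654).

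Counts divided by exon length allow levels to be set side by side between genes. As a share of the CPM per kb of these 3 genes together, Steap3 made up 78.1 ± 2.29% in iKO libraries and 67.8 ± 1.54% in controls (SD, n = 6 each). The share contains the Steap3 values that chose the gene, so its difference between the groups is a description too. The share ran from 74.6% to 81.0% in iKO libraries and from 65.0% to 69.1% in controls. Steap3 was therefore the main ferrireductase messenger of the 3 in either group, and Steap2 came next.

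Among the 10 genes Fth1, the ferritin heavy chain, had the highest level per kb. Control libraries had the order Fth1 (298 CPM per kb), Tfrc (39.4), Ireb2 (13.5), Steap3 (8.79), Aco1 (8.22), Slc11a2 (7.48), Steap2 (2.57), Steap1 (1.61), Ftl1 (1.52) and Slc40a1 (0.621). In iKO libraries Steap3, at 16.8 ± 1.85 CPM per kb, had passed Ireb2 at 12.1 ± 1.18 CPM per kb (SD, n = 6 each). The ranges of that pair overlapped in iKO libraries, 13.8 to 18.8 for Steap3 and 10.5 to 14.1 for Ireb2. In controls the ranges of Ireb2 and Steap3 did not overlap, while Steap3 and Aco1, Aco1 and Slc11a2, and Steap1 and Ftl1 did. The other 8 genes kept the same order in iKO libraries. Lengths are those of all annotated exons joined, so they exceed the length of any single transcript. They are 5715 bases for Steap3 and 9479 for Ireb2, against 5158 and 5770 in their longest coding transcripts. The order of genes close in level, Steap3 and Ireb2 among them, therefore rests on the lengths used. In undivided CPM, Ireb2 had the higher mean of the 2 in iKO libraries, 115 against 95.8 CPM.

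**Figure D2:**
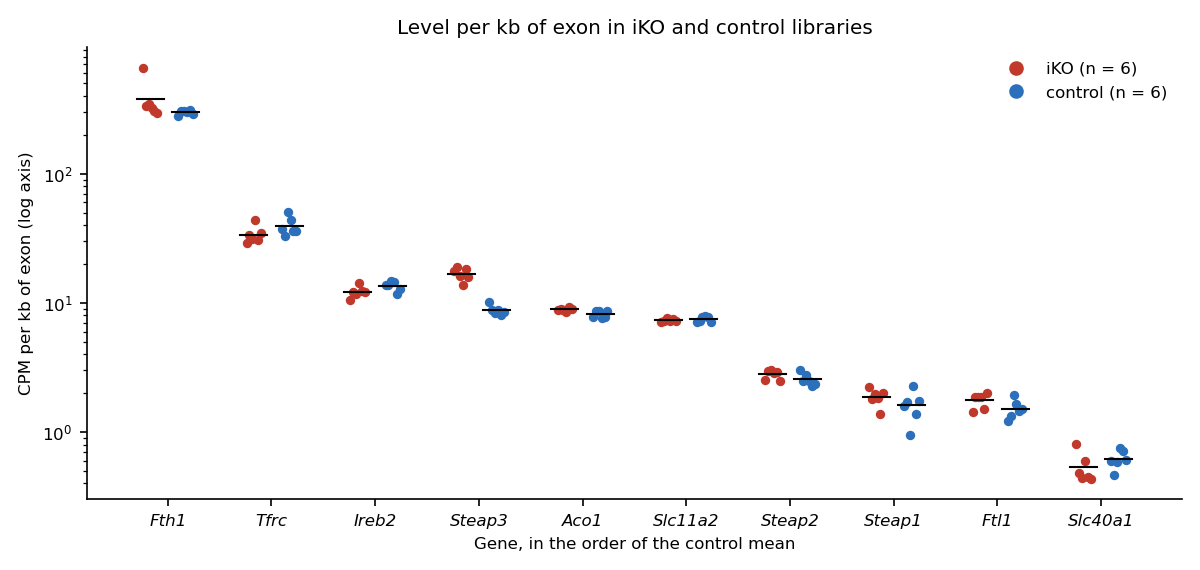
Level of each gene in CPM per kb of exon (log axis) in the 6 iKO libraries (red, left) and 6 control libraries (blue, right), with genes in the order of their control mean and black lines for means. With these joined exon lengths Steap3 moves past Ireb2 in iKO libraries, 16.8 against 12.1 CPM per kb. In controls it is below Ireb2, 8.79 against 13.5 CPM per kb. The order of the pair rests on the lengths used.

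The uptake genes were not called. Tfrc, the transferrin receptor and the carrier of the 4 hairpins in the 3′ UTR, had 178, 206, 193, 268, 189 and 213 CPM in iKO 1 to 6, with a median of 200 CPM. Controls had 231, 203, 312, 271, 223 and 222 CPM by replicate, with a median of 227 CPM. Most iKO libraries lay below the control median, but iKO 4 was above 4 of the 6 controls and the groups overlapped. For Tfrc the log2 fold change was -0.19 ± 0.10 (SE, 95% interval -0.40 to 0.03, edgeR adjusted p = 0.576), and without iKO 1 it was -0.17 (edgeR adjusted p = 0.436). Slc11a2, the divalent metal transporter that moves ferrous iron out of the endosome, had 45.5 to 48.6 CPM with a median of 46.2 CPM in iKO libraries and 44.98 to 50.04 CPM with a median of 47.8 CPM in controls. Its log2 fold change was -0.02 ± 0.05 (SE, 95% interval -0.12 to 0.08, edgeR adjusted p = 0.926), the narrowest interval of the 10 genes. Of its exon bases, 6.33% overlap another annotated gene, Gm5475, and the libraries carry no strand.

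The ratio of Steap3 to these partners in the endosome follows the Steap3 values and so is a description too. Steap3 stood at 0.472 ± 0.101 of the CPM of Tfrc in iKO libraries and 0.211 ± 0.0384 in controls (SD, n = 6 each). Against Slc11a2 it stood at 2.05 ± 0.231 in iKO libraries and 1.06 ± 0.131 in controls. Neither ratio overlapped between the groups, from 0.294 to 0.564 against 0.152 to 0.252 for Tfrc and from 1.72 to 2.32 against 0.930 to 1.30 for Slc11a2.

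Slc40a1, which encodes ferroportin, the cellular iron exporter, was the scarcest of the 10 per kb. It had 7.22, 4.33, 3.99, 5.37, 4.03 and 3.93 CPM in iKO 1 to 6 (median 4.18 CPM), and controls had 4.21 to 6.75 CPM with a median of 5.42 CPM. Library iKO 1 was the highest of the 12 and the other iKO libraries lay between 3.93 and 5.37 CPM, so the groups overlapped with and without it. The log2 fold change was -0.21 ± 0.18 (SE, 95% interval -0.58 to 0.17, edgeR adjusted p = 0.746), and without iKO 1 it was -0.34 (edgeR adjusted p = 0.195, the lowest of its alternatives, which reached 0.988).

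Fth1, the ferritin heavy chain that oxidises iron for storage, had 2296, 1167, 1199, 1115, 1068 and 1014 CPM in iKO 1 to 6, with a median of 1141 CPM. Controls had 965 to 1077 CPM with a median of 1046 CPM. Library iKO 1 stood far above the other 11, while iKO 5 and iKO 6 were within the control range. The log2 fold change was 0.27 ± 0.17 (SE, 95% interval -0.09 to 0.63, edgeR adjusted p = 0.635), and it was 0.10 without iKO 1 (edgeR adjusted p = 0.333, the lowest of its alternatives, which reached 0.995). In iKO 1, macrophage, fibroblast and endothelial markers were also at their highest, with endothelial markers at 209 CPM against 88.2 to 98.0 CPM in iKO 2 to 6 and 109 to 128 CPM in controls. The part of those cells in the Fth1 and Slc40a1 values was not tested.

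**Figure D3:**
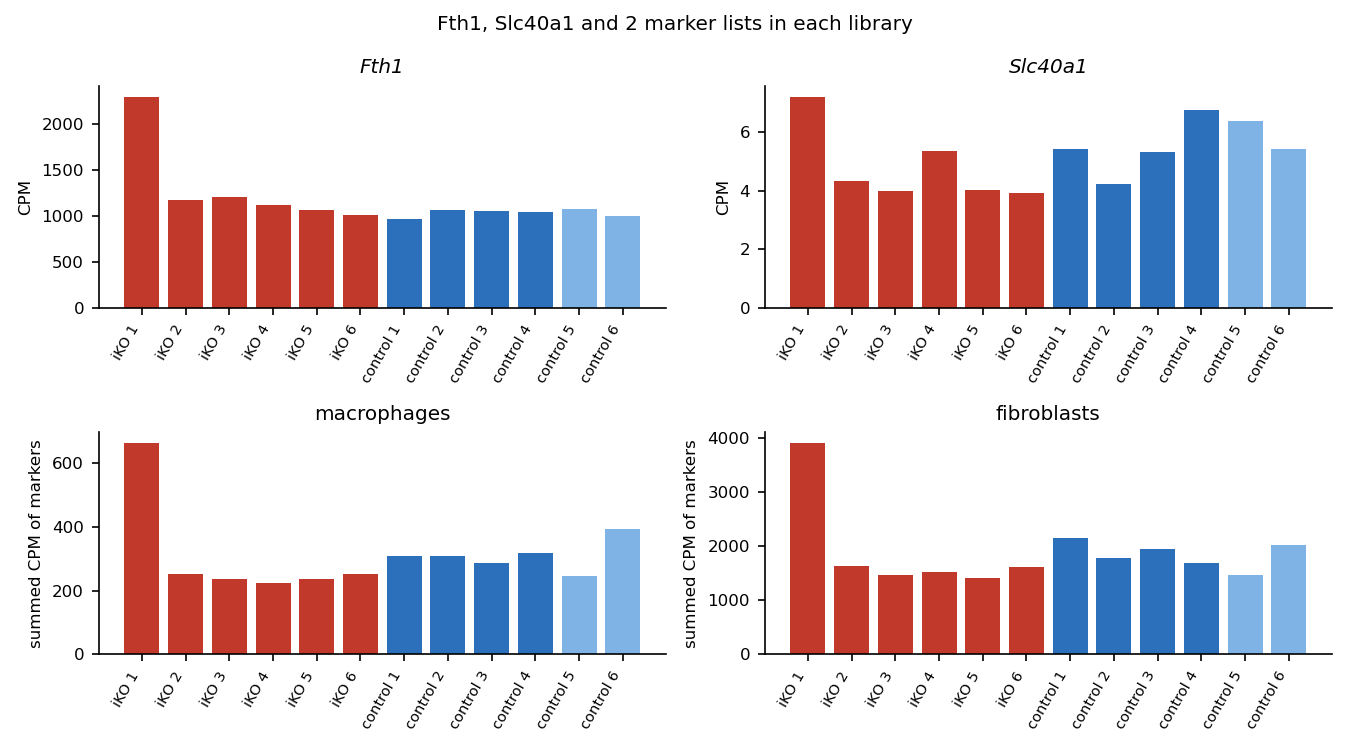
CPM of Fth1 and Slc40a1 (top) and summed CPM of 10 macrophage and 7 fibroblast markers (bottom) in each library, iKO in red on the left, tamoxifen-injected controls in blue and corn-oil controls in light blue. In iKO 1 all 4 bars are the highest, with Fth1 at 2296 CPM and macrophage markers at 663 CPM, against at most 1199 CPM and 394 CPM in the other 11 libraries.

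Ftl1, the ferritin light chain, had only 26 to 50 counts per library, or 1.92 to 2.704 CPM (median 2.49 CPM) in iKO libraries and 1.64 to 2.597 CPM (median 2.00 CPM) in controls. Its counts are uncertain because of shared sequence and overlap. Of the stretches of 50 bases in its longest coding transcript, 90.6% also occur, on either strand, in other annotated genes. Of its exon bases, 34.6% overlap other genes. For Fth1 the share of such stretches was 4.01%. How reads that fit several places were counted is not given in the sources used here, and the low level of Ftl1 beside Fth1 cannot be told apart from lost reads. Ftl1 had a log2 fold change of 0.25 ± 0.15 (SE, 95% interval -0.08 to 0.57, edgeR adjusted p = 0.634).

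The genes of the iron regulatory proteins had small differences of opposite sign. Aco1, the cytosolic aconitase that becomes iron regulatory protein 1 when it loses its iron-sulfur cluster, had 39.8, 40.2, 39.3, 38.5, 42.0 and 40.3 CPM in iKO 1 to 6 (median 40.0 CPM). Controls had 35.2, 39.0, 38.9, 34.6, 35.1 and 38.9 CPM (median 37.0 CPM). All iKO libraries but iKO 4 lay above every control. The difference amounted to a log2 fold change of 0.12 ± 0.05 (SE, 95% interval 0.00 to 0.23) and did not pass the test over all genes (edgeR adjusted p = 0.519).

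Ireb2, iron regulatory protein 2, which is degraded when iron is plentiful, had 99.5, 115, 110, 134, 116 and 114 CPM in iKO 1 to 6, with a median of 115 CPM. Controls 1 to 4, which received tamoxifen, had 129, 130, 141 and 136 CPM, and the corn-oil controls 5 and 6 had 112 and 121 CPM. Only iKO 4 reached the range of the tamoxifen-injected controls, while the corn-oil controls lay among the iKO libraries. The log2 fold change against all controls was -0.15 ± 0.07 (SE, 95% interval -0.31 to 0.01, edgeR adjusted p = 0.537), and without iKO 1 it was -0.12 (edgeR adjusted p = 0.386).

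Of the 9 genes other than Steap3, 0 were called between iKO and control libraries by edgeR, against 0.946% of all genes. At an unadjusted p under 0.05 there was 1, Aco1, against 9.52% of all genes, and DESeq2 and limma-voom each called 0. Their median log2 fold change was 0.11, from -0.21 for Slc40a1 to 0.27 for Fth1, beside a median of 0.00 over all genes. The 4 genes in which the search found the hairpin, Tfrc, Slc40a1, Fth1 and Ftl1, had log2 fold changes of both signs, 2 positive and 2 negative. Of the 9, 0 were called without iKO 1, when the share of all genes called was 2.21%. A missed threshold does not show that these genes were alike in the groups, and the 95% intervals above bound the differences.

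Against the tamoxifen-injected controls alone, 222 of 16384 genes were called (1.35%) and again 0 of the 9, with 2 of the 9 at an unadjusted p under 0.05, against 17% of all genes. Ireb2 came nearest, with a log2 fold change of -0.23 ± 0.06 (SE, edgeR adjusted p = 0.1001). DESeq2 called Ireb2 in that comparison (adjusted p = 0.0356), where it called 3.52% of all genes. So did edgeR without iKO 1 (-0.19, adjusted p = 0.0363), when 8.87% of all genes were called, or without iKO 4 (-0.26, adjusted p = 0.0283), when 2.84% were. Over all its alternatives the adjusted p of Ireb2 ran from 0.0283 to 0.302. Tfrc had -0.28 ± 0.10 there (SE, edgeR adjusted p = 0.163). Limma-voom called 0 of the 9 and DESeq2 only Ireb2. With no filter on low counts edgeR called 2 of the 9, Tfrc and Fth1, when 2.58% of all genes were called.

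Against the corn-oil controls, 24 genes were called (0.146%) and 0 of the 9, with 1 at an unadjusted p under 0.05, against 5.3% of all genes, and 0 by DESeq2 or limma-voom. That gene was Steap2, with a log2 fold change of 0.25 ± 0.11 (SE, edgeR adjusted p = 0.885). Ireb2 and Tfrc had log2 fold changes of 0.05 ± 0.09 and 0.05 ± 0.13 (SE) in that comparison. Both genes thus lay below 0 against tamoxifen-injected controls and near 0 against corn-oil controls, where the sign changed under some alternatives, and these comparisons share the iKO libraries.

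The direct comparison of corn-oil with tamoxifen-injected controls called 0 of 16384 genes (0%) by edgeR, with 1900 at an unadjusted p under 0.05 (11.6%), 15 by DESeq2 and 0 by limma-voom. Tfrc had a log2 fold change of -0.33 ± 0.14 in corn-oil against tamoxifen-injected controls (SE, edgeR adjusted p = 0.403), and Ireb2 had -0.27 ± 0.09 (SE, edgeR adjusted p = 0.395). These were the 2 of the 10 genes at an unadjusted p under 0.05. The 2 corn-oil controls are both male, carry CreERT2 with 2 floxed alleles and have the replicate numbers 5 and 6. Corn oil cannot be told apart from that genotype, nor from the time after injection, which is not given for them.

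**Figure D4:**
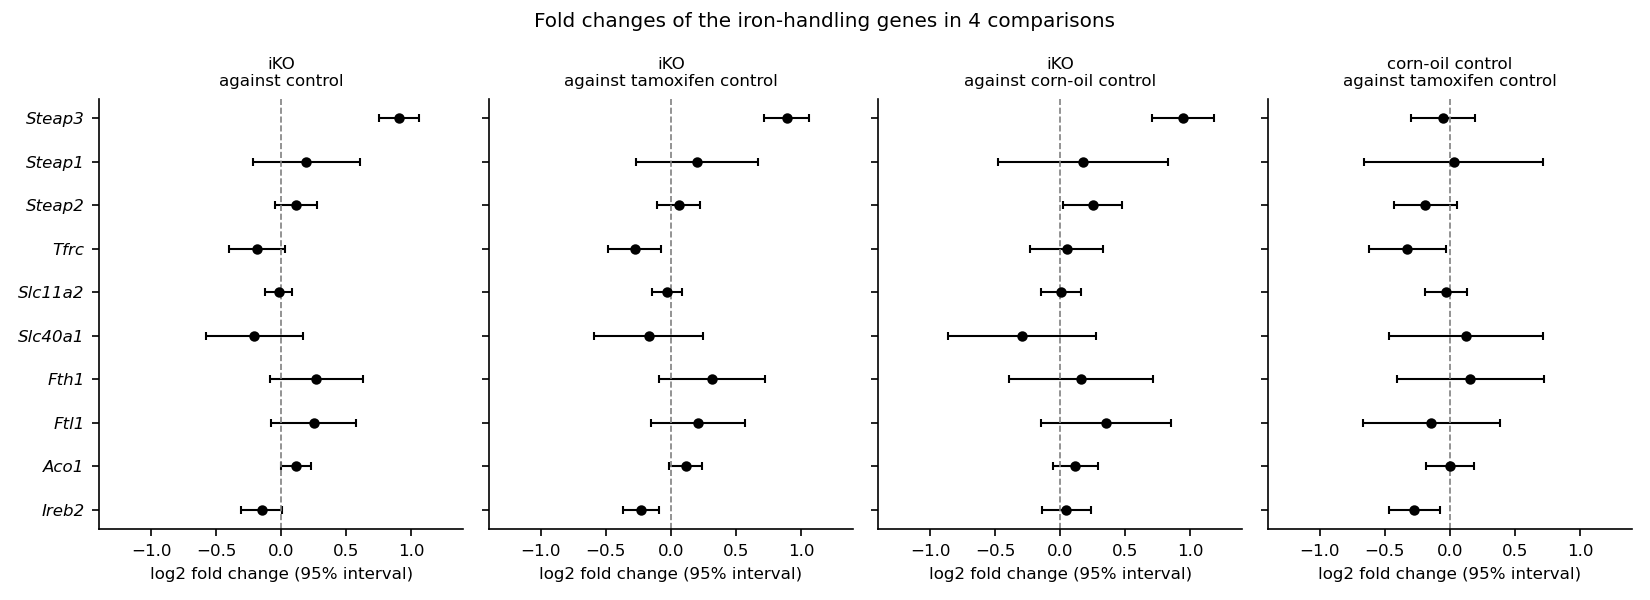
Log2 fold changes with 95% intervals of the 10 genes in 4 comparisons by edgeR, from iKO against all controls on the left to corn-oil against tamoxifen-injected controls on the right. Steap3 lies at 0.91, 0.89 and 0.94 in the comparisons with iKO libraries and at -0.05 between the controls, and Ireb2 and Tfrc lie below 0 against tamoxifen-injected controls and near 0 against corn-oil controls.

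Between the sexes, 9 genes were called (0.0549%) and 0 of the 10, with 1 at an unadjusted p under 0.05, against 4.11% of all genes, and 0 by DESeq2 or limma-voom. That gene was Tfrc, with a log2 fold change of 0.23 ± 0.10 in males against females (SE, edgeR adjusted p = 0.904). Steap3 had a log2 fold change of -0.15 ± 0.07 in males against females (SE, edgeR adjusted p = 0.904).

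Related pathways were read from 10 lists of 145 genes, of which 137 were tested. Between iKO and control libraries edgeR called 0 of them, against 0.946% of all genes. At an unadjusted p under 0.05 there were 11 (8.03%), 6 higher and 5 lower, against 9.52% of all genes. DESeq2 called 2 (1.46%), against 1.79% of all genes, limma-voom called 0, and the median log2 fold change was 0.02. Without iKO 1 edgeR called 3 of them (2.19%), Cyb561, Exoc6 and the ferroxidase gene Cp, when the share of all genes called was 2.21%.

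The list of other iron uptake and intracellular transport genes held both DESeq2 calls. Exoc6, an exocyst subunit that in mice is needed for transferrin cycling in red cell precursors, had 62.5 ± 4.90 CPM in iKO libraries and 49.6 ± 4.96 CPM in controls (SD, n = 6 each). The groups did not overlap, with 55.6 to 68.5 CPM in iKO libraries and 42.4 to 55.4 CPM in controls, as for 1.54% of all genes. Its log2 fold change was 0.33 ± 0.07 (SE, edgeR adjusted p = 0.0509, DESeq2 adjusted p = 0.00513), just outside the threshold of edgeR. Pcbp1, a chaperone that delivers iron to ferritin, had 109 ± 7.66 CPM in iKO libraries and 94.2 ± 6.24 CPM in controls, a log2 fold change of 0.20 ± 0.06 (SE, edgeR adjusted p = 0.187, DESeq2 adjusted p = 0.0444). Of the 17 genes of this list, 11 had positive values and the median was 0.08.

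The 6 other metalloreductase genes had a median of 0.04. Steap4, the remaining family member, had 16.9 ± 5.78 CPM in iKO libraries and 17.8 ± 3.11 CPM in controls (SD, n = 6 each), with its highest value of all, 28.7 CPM, in iKO 1. The gene with the smallest p of that list was Cyb561, a reductase of secretory vesicles, with 0.16 ± 0.06 (SE, edgeR adjusted p = 0.398). In the list of export, storage turnover and systemic control it was Tmprss6, a protease that lowers hepcidin production in liver, with 0.50 ± 0.24 at a level under 1 CPM (SE, edgeR adjusted p = 0.531).

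Heme and iron-sulfur cluster genes showed small values. Abcg2, a transporter that can export heme and porphyrins, had the smallest p among 12 genes of heme uptake, breakdown and export, with -0.20 ± 0.09 (SE, edgeR adjusted p = 0.470). For the 11 heme synthesis genes it was Uros, uroporphyrinogen III synthase, with 0.10 ± 0.06 (SE, edgeR adjusted p = 0.605). Glrx5, a mitochondrial glutaredoxin of iron-sulfur cluster transfer, had 0.18 ± 0.08 (SE, edgeR adjusted p = 0.453), among 24 genes with a median of 0.02.

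Of 13 copper handling genes Cox17, a copper chaperone of cytochrome oxidase, had -0.22 ± 0.12 (SE, edgeR adjusted p = 0.574), and the list median was 0.10. Acsl4, an acyl-CoA synthetase that makes lipids prone to peroxidation, had -0.22 ± 0.10 among 17 genes of lipid peroxidation defence and ferroptosis (SE, edgeR adjusted p = 0.481). The 2 remaining lists bear on the other known roles of Steap3. Among 14 p53 targets Sesn2, a stress-responsive inhibitor of mTORC1 signalling, had 0.42 ± 0.14 (SE, edgeR adjusted p = 0.314), with a list median of 0.03. Rab27b, a small GTPase of exosome release, had -0.25 ± 0.11 among 13 genes of exosome secretion and late endosomes (SE, edgeR adjusted p = 0.476), with a list median of 0.00.

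Against the tamoxifen-injected controls alone, edgeR called 2 of the 137 list genes (1.46%), near the 1.35% of all genes, and 18 had an unadjusted p under 0.05 (13.1%, against 17% of all genes). DESeq2 called 5 there (3.65%, against 3.52% of all genes) and limma-voom 2. The calls of edgeR were Pcbp1 and Rab27b. Pcbp1 had 109 ± 7.66 CPM in iKO libraries (n = 6) and 91.7 ± 6.12 CPM in tamoxifen-injected controls (SD, n = 4), a log2 fold change of 0.25 ± 0.05 (SE, edgeR adjusted p = 0.0292). The ranges overlapped, 98.2 to 120.2 CPM in iKO libraries against 86.8 to 99.8 CPM in those controls, and the corn-oil controls had 97.5 and 101 CPM. The call was lost without any 1 of iKO 3, 5 and 6 and controls 1 to 3, with adjusted p up to 0.109. It was also lost with no sex term and with the replicate block. Over all alternatives the edgeR adjusted p of Pcbp1 reached 0.149.

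Rab27b had 138 ± 15.0 CPM in iKO libraries (n = 6) and 180 ± 17.2 CPM in tamoxifen-injected controls (SD, n = 4), a log2 fold change of -0.38 ± 0.08 (SE, edgeR adjusted p = 0.0236). The iKO libraries had 124 to 164 CPM, against 159 to 201 CPM in those controls. The corn-oil controls, at 133 and 135 CPM, lay among the iKO libraries. Against them the log2 fold change of Rab27b was 0.11 ± 0.10 (SE, edgeR adjusted p = 1.00), and between corn-oil and tamoxifen-injected controls it was -0.50 ± 0.11 (SE, edgeR adjusted p = 0.393, DESeq2 adjusted p = 0.0334). The call against tamoxifen-injected controls was lost without any 1 of iKO 3, 5 and 6 and controls 1 and 3, with adjusted p up to 0.135. It was also lost with the replicate block, and over all alternatives the edgeR adjusted p of Rab27b reached 0.187. In the fit without corn-oil libraries Rab27b was called too (-0.37, edgeR adjusted p = 0.0393).

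Of the 137 list genes edgeR called 0 against corn-oil controls, for corn oil against tamoxifen and between the sexes, where 8, 20 and 7 had an unadjusted p under 0.05 (5.84%, 14.6% and 5.11%, against 5.3%, 11.6% and 4.11% of all genes). DESeq2 called 2, 1 and 0 of them (1.46%, 0.73% and 0%, against 0.403%, 0.0916% and 0.0916% of all genes). Limma-voom called 0 in each, against 0.0977%, 0% and 0.0549% of all genes.

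**Figure D5:**
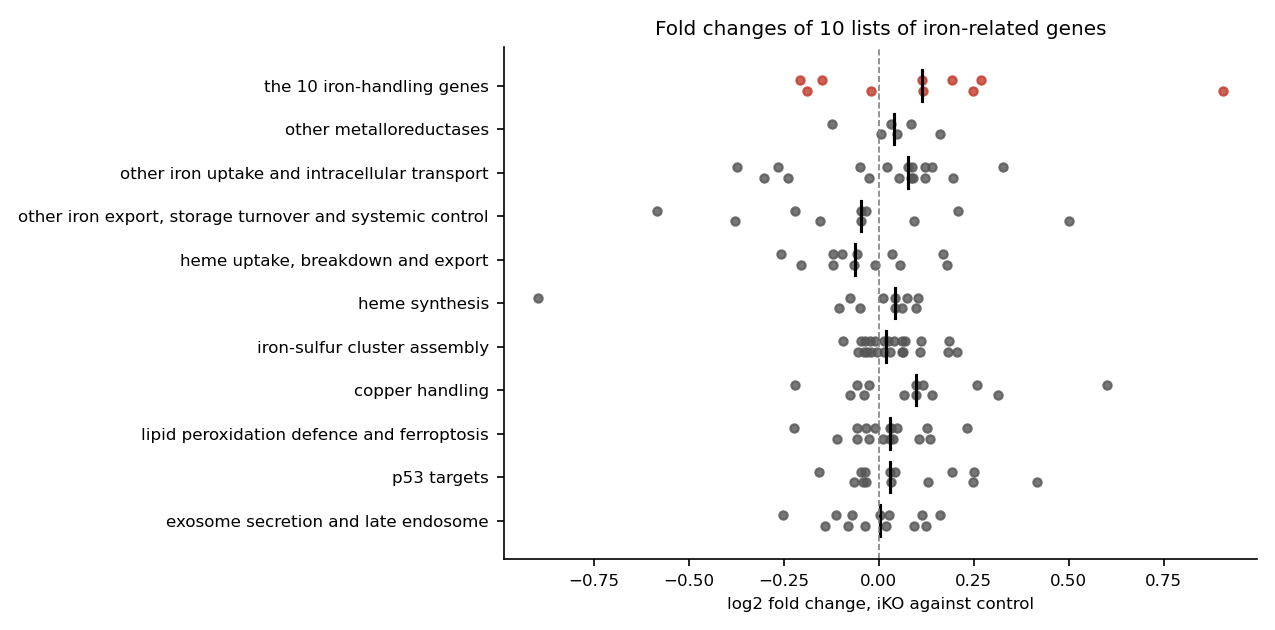
Log2 fold changes, iKO against control, of the 10 iron-handling genes (red, top row) and of the tested genes of 10 lists (grey), 1 point a gene, with black lines for the medians. Steap3 lies at 0.91, right of every other point, but it was chosen on this contrast, so its place is a description only. The list medians lie between -0.06 and 0.10.

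Genes near Steap3 on chromosome 1 were read as a check on its surroundings. Of the 5 annotated protein-coding neighbours on each side, 5 in all were tested. EdgeR called 0 of them, against 0.946% of all genes, and DESeq2 and limma-voom called 0. At an unadjusted p under 0.05 there were 0, against 9.52% of all genes. With 5 genes, 0 calls cannot tell the surroundings from that background. The log2 fold changes of the 5 ran from -0.09 for Ccdc93 to 0.34 for Tmem37, which has about 1 CPM.

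The genes most like Steap3 were ranked by Pearson's r of log2 CPM over the 12 libraries, among 15474 genes with a mean log2 CPM of at least 0. They were Arid5a (r = 0.96), Drd1 (r = 0.96), Shc1 (r = 0.95), Lmo1 (r = 0.95) and Nkain1 (r = 0.95). All 5 had higher means in iKO libraries, such as 24.3 ± 1.76 CPM in iKO libraries and 14.7 ± 1.13 CPM in controls for Arid5a (SD, n = 6 each). The libraries fall into 2 groups, so these values include the group difference that chose Steap3. With the group means removed, the 5 most like Steap3 were Necab2 (r = 0.88), Grin2c (r = 0.88), Ift22 (r = 0.86), Dnase1l3 (r = 0.85) and Gm16976 (r = 0.84), a set with no gene in common with the first. Within groups Steap3 had r = 0.00 with Prdm12, -0.55 with Ftl1, -0.51 with Tfrc, 0.38 with Steap2, -0.29 with Slc11a2, -0.26 with Ireb2, 0.13 with Fth1, -0.12 with Slc40a1, 0.11 with Aco1 and 0.08 with Steap1. These coefficients describe 12 libraries that also share depth and composition.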

How the data were processed

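The authors deposited unnormalized counts of reads by gene, 1 table for each of 12 libraries. Libraries came from an unstranded TruSeq kit, per the labels' protocols, and bcl2fastq 2.20.0.422, STAR 2.7.8a, featureCounts 2.0.1 and the GRCm39 build are named in the submitters' processing notes. No source used here gives the counting options. Symbols were matched by identifier for 52083 of 55416 genes from an annotation of an older build (GENCODE M21, GRCm38), which also gave exon lengths, transcripts and UTR sequences, so no positions are printed.

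Counts were filtered by group (filterByExpr, 16384 genes), scaled by TMM and tested with edgeR 4.0.16 in R 4.3.3 by the quasi-likelihood test with robust estimates and sex as a term. There were 9 residual degrees of freedom, or 8 when the 2 kinds of control were separate groups. P-values are 2-sided and Benjamini-Hochberg adjusted over all genes, with a threshold of 0.05. CPM are counts divided by the library size after TMM scaling. Log2 CPM for correlations used a prior count of 2. The biological coefficient of variation was 12.8%, which at these depths sets the precision for most genes. DESeq2 1.42.0, limma-voom (limma 3.58.1), other scalings, no filter and left-out libraries were alternatives. The procedure was tested on simulated data. The 10 genes, the lists and the tests were chosen with earlier results of these data known. Named genes are the 10, Prdm12, called members of each list or else the one with the smallest p, and the 5 genes most like Steap3 by each measure. Pcbp1, Steap4, Cp, Ccdc93 and Tmem37 were named after their values were seen.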

Additional observations from a re-analysis of the deposited data

Results flagged for a closer look

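Of 81 sets of 4 or 6 libraries examined over 27 named genes, 7 held a library far from the others by Dixon's criterion, where chance gives about 1 in 20. Fth1 was at 2296 CPM in iKO 1, against 1014 to 1199 CPM in iKO 2 to 6. Glrx5 was at 52.0 CPM in the same library, against 42.6 to 44.9 CPM in the other iKO libraries, and Prdm12 was at 18.6 CPM, against 22.9 to 25.4 CPM. Marker genes of macrophages and fibroblasts also peaked in iKO 1, and their part in these values was not tested. Steap3 was at 58.3 CPM in control 1, against 46.1 to 50.5 CPM in the other controls. Abcg2 was at 77.1 CPM in control 1, against 94.4 to 96.5 CPM in the other tamoxifen-injected controls. Shc1 was at 94.9 CPM in control 3, against 106 to 109 CPM in all other controls and 108 to 109 CPM in the tamoxifen-injected ones, which flagged it in both sets.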

How the results depend on the processing

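All alternatives were planned. The 155 genes called for iKO against control became 294 with DESeq2, 253 with no filter on low counts and 235 without the corn-oil controls. Within replicates 1 to 4 alone there were 35, within replicates 5 and 6 alone 82, among males alone 45 and among females alone, 3 iKO and 2 control libraries, 1. Leaving out 1 library gave 92 (without control 1) to 364 (without iKO 1). For iKO against tamoxifen-injected controls, 222 became 576 with DESeq2 and 927 with no filter, and 98 (without control 1) to 1459 (without iKO 1) with 1 library left out. For iKO against corn-oil controls, 24 became 66 with DESeq2, 349 with no filter and 39 with no sex term, and 3 (without control 5) to 160 (without iKO 1) with 1 library left out. A corn-oil group of 1 library is assumed to vary like the other groups. Corn oil against tamoxifen gave 15 with DESeq2, 443 with no filter and 0 to 14 (without iKO 1) with 1 library left out. For the sexes, 9 became 15 with DESeq2 and 16 with no filter. The cause of these shifts was not tested.

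Deviations of same-numbered libraries from their group means had correlations of -0.18 to 0.24, over 0.1 in 3 of 6 pairs. Of the 6 iKO libraries, 3 were closest to the control of their number. The labels do not say whether the numbers pair the libraries, and these values do not settle it. With the replicate block, 161, 78, 2, 0 and 6 genes were called for iKO against control, against tamoxifen-injected controls, against corn-oil controls, for corn oil against tamoxifen and for the sexes.

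Among 45 gene values under 1017 alternatives, 953 kept their direction and side of the threshold, 34 lost a call, 19 gained one and 11 changed sign. The log2 fold change of Steap3 stayed between 0.82 and 1.05 against all controls. None of the other 9 genes was called against all controls in any of 25 settings. Against tamoxifen-injected controls Tfrc and Fth1 were called with no filter, when 2.58% of all genes were, and Ireb2 as given above. With no filter 10 list genes were called in that comparison (6.94%). Against corn-oil controls there were 7 (4.86%, against 0.973% of all genes). For corn oil against tamoxifen there were 7 (4.86%, against 1.23%), and against all controls 1 (0.694%, against 0.705%). The sign changes were all in uncalled values. Slc11a2 had 0.0435 in females alone, Slc40a1 0.0199 within replicates 1 to 4 and 0.110 in females alone, and Rab27b 0.0204 within replicates 5 and 6. Against corn-oil controls Ireb2 had -0.0202 with no sex term, -0.0153 with the replicate block and -0.0141 to 0.115 with 1 library left out. Tfrc had -0.0971, -0.148 and -0.0417 to 0.152 under the same changes. Exoc6 was called in 9 of 25 alternatives, with adjusted p from 0.00251 to 0.767. Depth limits Ftl1, Steap1 and Slc40a1 most, which have few counts.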
